A study of Macaca mulatta with 2 samples.

Results

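*ZBTB7B*, *RUNX3*, *RUNX1*, *TOX* and *BCL11B* encode transcription factors that set or hold the CD4 and CD8 lineages of T cells. They were taken by name, for their known roles in the thymus, as 5 of the 35432 genes counted, and their UMIs (molecules counted once each by a molecular barcode) were read against the CD4 and CD8 protein of the same cells and against *CD4* and *CD8A* mRNA. The cells were double positive (DP) T cells from the peripheral blood of 1 healthy, untreated rhesus monkey aged 6 years, purified with CD4 beads and then with CD8 beads. An RNA library, read from the 5′ end of transcripts, and a library of antibody-derived tags for CD4 and CD8, or feature barcodes (FB), were made from the same cells, and 7923 cell barcodes carried both. With 1 animal there is no biological replicate and no test, so every interval given is a 95% interval of counting error only.

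In the thymus, a cell that carries both coreceptors becomes a CD4 or a CD8 T cell. *ZBTB7B* encodes ThPOK, which is needed for the CD4 lineage and holds down genes of the CD8 lineage. *RUNX3* encodes a Runx factor of the CD8 lineage, which silences *CD4*, acts on *ZBTB7B* and takes part in cytotoxic programmes. *RUNX1*, a related Runx factor, represses *CD4* in immature thymocytes and acts throughout the T lineage. *TOX* encodes an HMG-box factor that CD4 lineage development requires and that is also known from chronically stimulated T cells. *BCL11B* encodes a zinc finger factor of T cell identity. ThPOK and RUNX3 are known as mutual antagonists in this choice.

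In the RefSeq annotation of Mmul_10, the genome build to which the reads were aligned, *ZBTB7B* (ENSMMUG00000004053) lies on chromosome 1 at 96015361 to 96032749 on the minus strand. *RUNX3* (ENSMMUG00000002420) lies on chromosome 1 at 199811505 to 199844801 on the plus strand. *RUNX1* (ENSMMUG00000001649) lies on chromosome 3 at 11515197 to 11791957, *TOX* (ENSMMUG00000010971) on chromosome 8 at 59450801 to 59761053, and *BCL11B* (ENSMMUG00000003261) on chromosome 7 at 161367735 to 161471547. The 250 bases before the annotated start of *ZBTB7B* and *RUNX3* are printed from that genome, 5′ to 3′ on the gene's strand, because the levels of this pair are set against each other throughout. They lie at chr1:96032750-96032999 (minus strand) and chr1:199811255-199811504 (plus strand). Capitals mark a match to the Runx core motif, TGTGGT or TGCGGT on either strand.
ZBTB7B: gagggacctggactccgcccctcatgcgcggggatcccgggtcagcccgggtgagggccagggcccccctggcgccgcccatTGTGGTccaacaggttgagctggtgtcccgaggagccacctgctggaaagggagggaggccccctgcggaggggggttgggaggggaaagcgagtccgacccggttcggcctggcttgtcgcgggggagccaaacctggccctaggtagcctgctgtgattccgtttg
RUNX3: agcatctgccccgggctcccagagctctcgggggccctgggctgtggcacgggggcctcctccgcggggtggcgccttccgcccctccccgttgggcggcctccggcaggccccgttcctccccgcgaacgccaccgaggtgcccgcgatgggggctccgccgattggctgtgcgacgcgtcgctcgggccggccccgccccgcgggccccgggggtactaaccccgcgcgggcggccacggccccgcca
*ZBTB7B* held 1 match, 168 bases before the start, and *RUNX3* held none in this window. None was found before *RUNX1*, *TOX*, *BCL11B*, *CD4*, *CD8A* or *CD8B*. Of 20782 such windows of protein-coding genes, 16.9% held at least 1 match, so a match of this kind is common, and these letters alone show no binding.

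After the study's filters, 7601 cells remained, and 7311 of them (96.2%) held a *CD3E* UMI and are called T cells here. *CD3D* was found in 92.9% and *CD3G* in 77.8% of them. The T cells had a median of 3656 gene UMIs (509 to 23519). A further 86 cells without any CD3 gene held 3 or more UMIs of 7 B cell genes, and these B gene cells gave the background of the antibodies, with the 90th percentile at 191 CD4 FB and 330.5 CD8 FB. By these thresholds 3592 T cells (49.1%) were above background for both FB, 3270 (44.7%) for CD4 FB only, 186 (2.54%) for CD8 FB only and 263 (3.60%) for neither. The median FB was 387 for CD4 and 342 for CD8 in T cells, against 90 and 139.5 in B gene cells. The share that met the DP label rested on the threshold, since 84.8% of T cells had both FB above the median of the B gene cells and 6.62% above their maximum. Both FB also followed library depth, with a Spearman rho across cells of 0.51 between CD4 FB and gene UMIs and 0.33 for CD8 FB. Of other cell types, *NCAM1* of NK cells gave 5 UMIs in all T cells, *CD14* was found in 0.821% of cells, *CLEC4C* was at 0, *KLRF1*, which cytotoxic T cells share with NK cells, was found in 20.5%, and 514 T cells held a UMI of a B cell gene.

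*RUNX3* was found in 2091 of 7311 T cells, or 28.6% (27.6 to 29.7%), with 2956 UMIs. Its level, in UMIs per 1000000 gene UMIs (CPM), was 98.2 (94.7 to 102). Levels are compared here between groups of cells and not between genes, whose counts were not scaled to length. *RUNX3* was counted up to 6 times in a cell, with 456 cells at 2 UMIs and 175 at 3 or more. *ZBTB7B* was found in 439 cells, or 6.00% (5.47 to 6.57%), with 460 UMIs and a level of 15.3 CPM (13.9 to 16.7). In 420 of these cells it was a single UMI, so that a T cell without a *ZBTB7B* UMI cannot be called negative. *TOX* was found in 18.0% of T cells (51.2 CPM), *RUNX1* in 12.04% (32.9 CPM) and *BCL11B* in 5.79% (14.6 CPM). Sparse as these counts are, each share depends on depth, and among the 6935 T cells thinned to 2000 UMIs the shares were 18.2% for *RUNX3*, 10.2% for *TOX*, 6.33% for *RUNX1*, 3.07% for *ZBTB7B* and 2.74% for *BCL11B*.

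The B gene cells (median depth 4137.5 UMIs) gave a reference outside the T lineage. *TOX* and *BCL11B* were found in 0 of 86 of them, which allows a share of cells with a UMI of up to 3.49% (3 counts of 86). The other three members were found there. *RUNX3* was in 10.1% and *RUNX1* in 3.80% of the B gene cells thinned to 2000 UMIs, and B cells are known to express Runx factors. *ZBTB7B* was in 5.06% of them, 4 of 79 cells, against 3.07% of thinned T cells, and at 32.8 CPM (17.4 to 56.0) against 15.3 CPM. Presence of a *ZBTB7B* UMI therefore did not set T cells apart from B gene cells, and the sections that follow compare its level between groups of T cells.

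The first question was whether the lineage factors follow the amount of CD8 protein. T cells were cut into quintiles, 5 groups of equal size, by CD8 FB, with median FB counts of 119, 219, 342, 516 and 915. *CD8A* mRNA followed the protein, at 25.1, 73.4, 130, 222 and 327 CPM. *RUNX3*, the CD8 lineage factor, did not rise with it over the range. It stood at 76.2 CPM in quintile 1, the lowest, 114 in quintiles 2 and 3, 102 in quintile 4 and 87.6 in quintile 5, the highest. Highest over lowest, the log2 ratio of *RUNX3* was 0.20 (0.02 to 0.38), against 3.71 (3.45 to 3.97) for *CD8A*. The share of cells with 2 or more UMIs of *GZMB*, a cytotoxic granule protease, ran a like course over the quintiles, at 26.3%, 47.9%, 48.6%, 43.6% and 35.5%. The small *RUNX3* difference was not stable to processing. It was 0.84 when cells were ordered by FB per gene UMI and -0.062 when the ratio was pooled over 12 gates of cells defined further on, a step added after the data were seen.

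*ZBTB7B*, the CD4 lineage factor, did not fall over the same range. Its level was 14.5, 15.2, 16.8, 14.96 and 14.97 CPM from the lowest to the highest quintile. The log2 ratio was 0.04 (-0.39 to 0.48), an interval that holds folds from 0.765 to 1.40. *RUNX1* (0.09, -0.19 to 0.38) and *BCL11B* (0.18, -0.25 to 0.61) also had intervals that held 0. Over all T cells, *TOX* was lower where CD8 FB was high. It stood at 57.9, 57.4 and 59.4 CPM in quintiles 1 to 3, at 49.4 in quintile 4 and at 38.8 in quintile 5, a log2 ratio of -0.58 (-0.81 to -0.34). Ordered by FB per gene UMI the *TOX* ratio was 0.051 and that of *ZBTB7B* was 0.51. Of the 5 members, *TOX* alone was lower by 0.5 or more on the log2 scale, as were 3.24% of 8793 genes, and none was higher by 0.5, as were 7.47%. The median of the members was 0.09 and that of all genes 0.01. B cell genes were also higher in quintile 5 than in quintile 1, at 191 against 38.6 CPM for 7 genes together, and without the cells holding such a UMI the ratios were 0.27 for *RUNX3*, 0.20 for *ZBTB7B* and -0.53 for *TOX*.

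**Figure D1:**
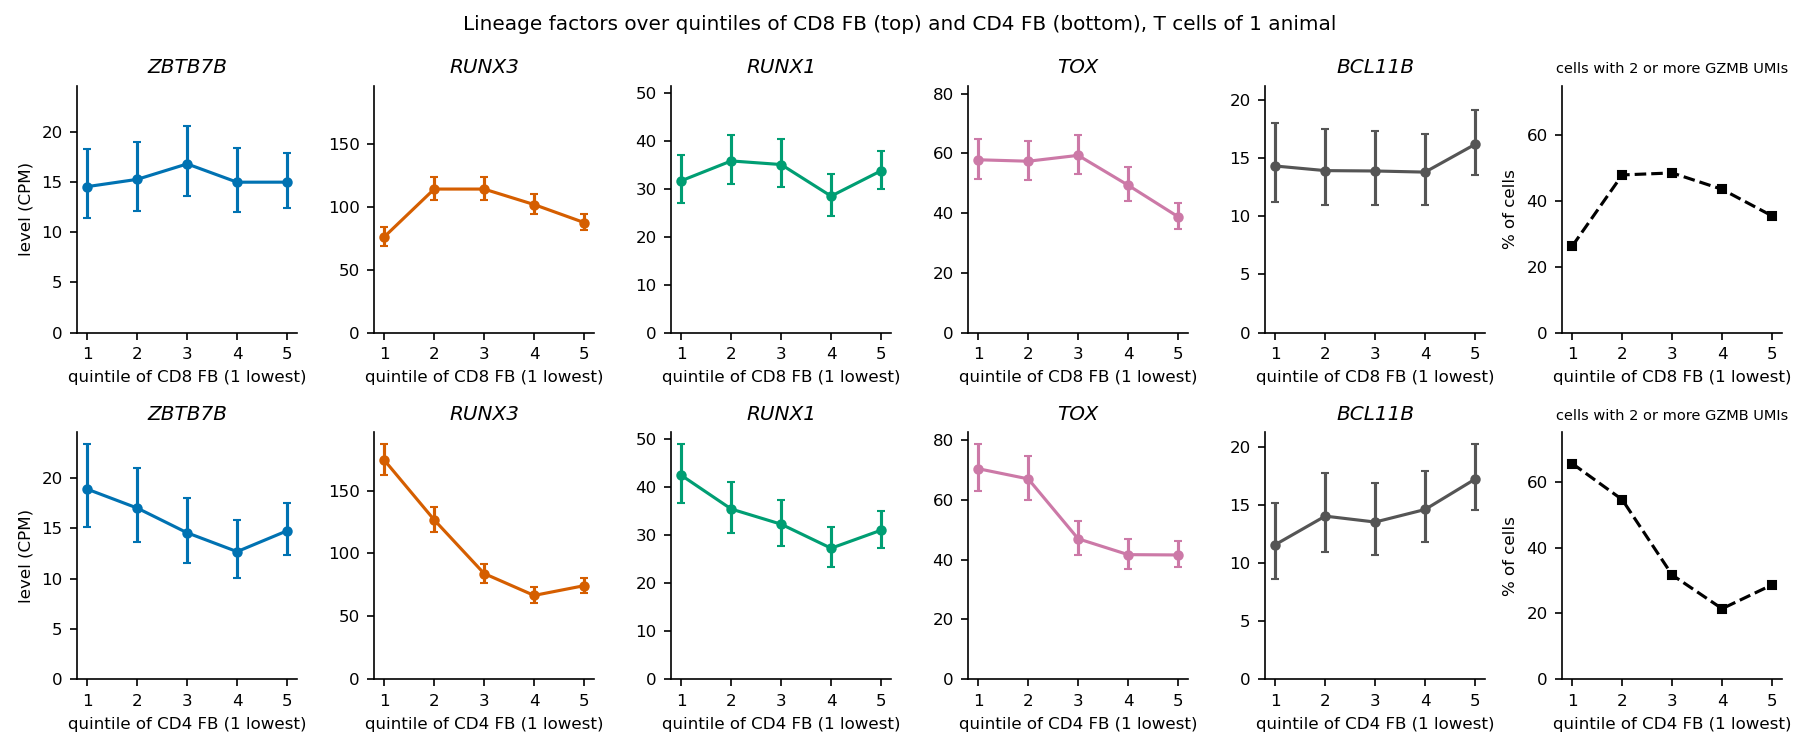
Level of each member (vertical axis, CPM) in quintiles of T cells ordered by CD8 FB (top row) or CD4 FB (bottom row), with 95% counting intervals as bars; the last panel of each row gives the percentage of cells with 2 or more *GZMB* UMIs. *RUNX3* falls from 174 to 74.3 CPM from the lowest to the highest quintile of CD4 FB, while *ZBTB7B* stays between 12.7 and 18.9 CPM in all 10 groups.

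CD4 protein gave another picture. Over quintiles of CD4 FB, with medians of 222, 310, 387, 473 and 668, *RUNX3* fell from 174 CPM in the lowest to 127, 84.0, 66.6 and 74.3 in the higher quintiles. The log2 ratio of highest over lowest was -1.23 (-1.38 to -1.08). *TOX* followed it, at 70.5, 67.1, 47.0, 41.7 and 41.6 CPM (-0.76, -0.98 to -0.54). *RUNX1* was lower by less, at 42.5 CPM in the lowest and 31.0 in the highest quintile (-0.45, -0.73 to -0.18). *BCL11B*, the factor of T cell identity, ran the other way, from 11.6 to 17.2 CPM (0.57, 0.11 to 1.06). *ZBTB7B* was not higher where CD4 protein was high. It was at 18.9 CPM in the lowest quintile and 14.8 in the highest (-0.36, -0.76 to 0.06). In cells thinned to 2000 UMIs it was lower at high CD4 FB, in 4.76% of cells (3.66 to 6.08%) of the lowest and 2.29% (1.58 to 3.19%) of the highest quintile. With quintiles cut anew among the thinned cells its ratio was -1.09 (-1.74 to -0.46). *CD4* mRNA itself was at 163 CPM in the lowest and 181 in the highest quintile, a log2 ratio of 0.15 (0.025 to 0.28).

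Of the members, *RUNX3* and *TOX* were lower by 0.5 or more, as were 12.4% of 8814 genes, and *BCL11B* was higher by that much, as were 7.96%. Only *RUNX3* was lower by 1 or more, as were 2.16% of genes. The median of the members was -0.45, against -0.12 for all genes. Without the cells that were not above background for CD4 FB, a choice made after the data were seen, *RUNX3* kept a ratio of -1.14 (-1.30 to -0.98), in a comparison in which 12.6% of genes were lower by 0.5 or more. Cell state moved with these quintiles. Cells of the *GZMB*+ gates, defined further on, were 63.9% of the lowest and 24.6% of the highest quintile, and NK cell markers, *KLRF1* and *NCAM1* together, stood at 148 and 38.1 CPM. B cell genes ran the other way, at 64.7 CPM in the lowest and 132 CPM in the highest quintile, in 4.44% and 12.7% of cells. Pooled over the 12 gates the ratio was -0.66 for *RUNX3* and -0.39 for *TOX*. Depth moved with them too, from a median of 3043 to 5180 gene UMIs, and ordered by FB per gene UMI the ratio was -0.11 for *RUNX3*, 0.18 for *TOX* and 0.24 for *RUNX1*. Thinning the RNA to 2000 UMIs per cell left *RUNX3* at 27.9% of cells in the lowest and 13.2% in the highest quintile. With quintiles cut anew among the thinned cells the ratio was -1.24 for *RUNX3*, -0.64 for *TOX* and -0.029 for *RUNX1*. The FB counts were not thinned, so cells captured more fully and cells with more CD4 protein cannot be told apart by FB.

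**Figure D2:**
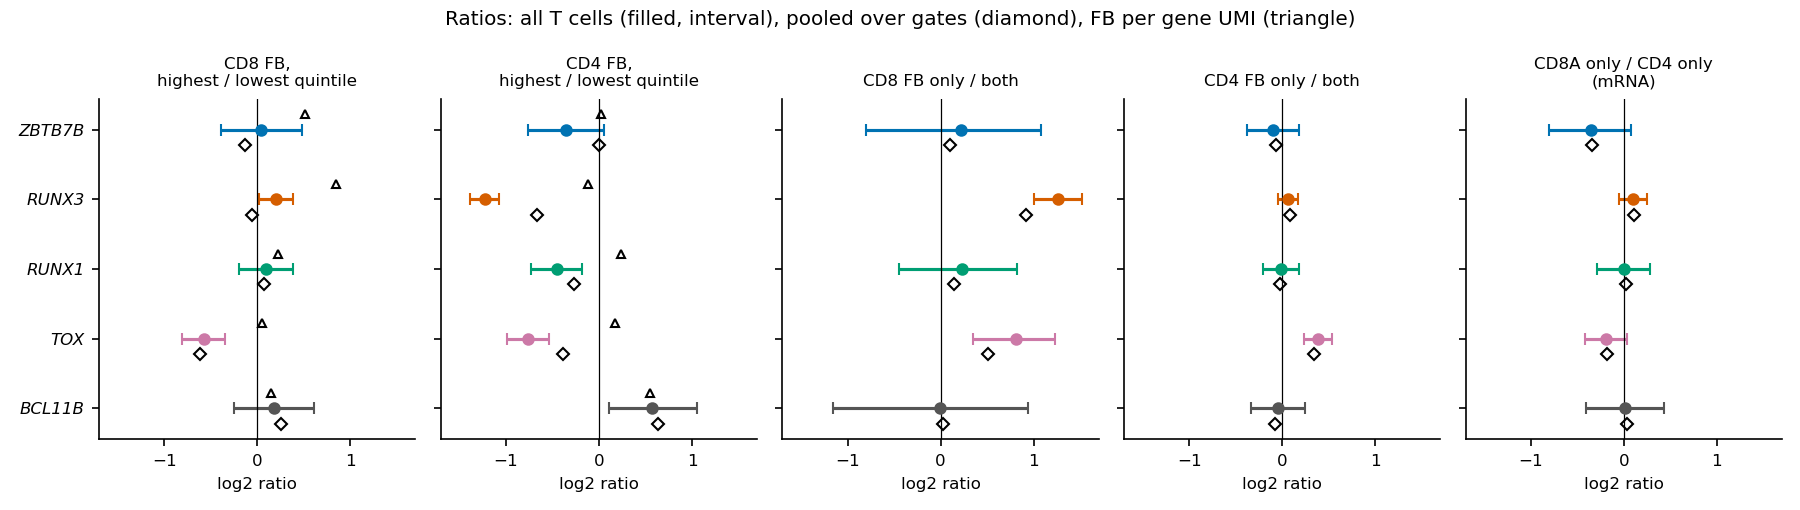
Log2 ratio of each member (horizontal axis) for the main comparisons, with filled points and 95% counting intervals for all T cells, diamonds for the ratio pooled over 12 gates and triangles for cells ordered by FB per gene UMI. For CD4 FB the *RUNX3* ratio of -1.23 becomes -0.66 pooled over gates and -0.11 with FB per gene UMI.

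With 3 equal groups (tertiles) of CD4 FB crossed with 3 of CD8 FB, *RUNX3* was highest where CD4 FB was low and CD8 FB was middle or high, at 176 and 187 CPM. It was lowest, at 55.6 CPM, where CD4 FB was high and CD8 FB low. In the lowest tertile of CD4 FB it rose with CD8 FB from 127 to 187 CPM. In the highest tertile it also rose, at 55.6 (46.0 to 66.6), 70.9 and 76.6 CPM (70.4 to 83.1). In the middle tertile it was 82.8, 91.4 and 78.5 CPM. *ZBTB7B* lay between 18.1 and 18.9 CPM in the lowest tertile of CD4 FB and between 11.3 and 14.8 CPM in all other groups. The intervals of these levels overlapped between all 9 groups. In cells thinned to 2000 UMIs *ZBTB7B* was found in 4.74% (3.37 to 6.45%) of cells with low CD4 and middle CD8 FB. It was found in 2.13% (1.39 to 3.102%) of cells with both high. These are the highest and the lowest of the 9 shares in a single random draw, so their separate intervals show no difference between groups chosen beforehand. *TOX* did not fall with CD8 FB in the lowest tertile of CD4 FB, at 67.9, 69.7 and 75.8 CPM. It was at 57.4, 52.0 and 37.2 CPM in the middle tertile and at 42.9, 52.2 and 35.6 CPM in the highest.

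Coreceptor mRNA gave the next comparison. By raw *CD8A* UMIs, with 4458 T cells at 0, 1584 at 1, 718 at 2 and 551 at 3 or more, *RUNX3* stood at 97.5, 100.5, 108 and 86.5 CPM. By raw *CD4* UMIs it stood at 99.6, 96.8, 99.4 and 92.3 CPM. *ZBTB7B* was likewise level, at 15.5, 14.5, 13.9 and 17.1 CPM over *CD8A* UMIs and at 14.1, 16.4, 16.8 and 14.8 CPM over *CD4* UMIs. *TOX* fell from 54.8 to 36.8 CPM (30.6 to 43.8) between cells without *CD8A* and cells with 3 or more *CD8A* UMIs. *CD8B*, which marks the CD8αβ form of the coreceptor typical of the CD8 lineage, was found in 292 T cells only. *RUNX3* was at 98.7 CPM in cells without *CD8B*, at 70.2 CPM (55.8 to 87.3) in the 205 cells with 1 UMI and at 137.5 CPM (98.6 to 186) in the 50 cells with 3 or more.

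Against the 2053 T cells with *CD4* mRNA only, the 1353 with *CD8A* mRNA only showed no member difference beyond counting error. *RUNX3* was at 109.5 against 102 CPM, a log2 ratio of 0.10 (-0.05 to 0.25). *ZBTB7B* was at 12.3 against 15.8 CPM (-0.36, -0.80 to 0.08), and *TOX* had a ratio of -0.19 (-0.42 to 0.04). Under 11 other settings the *ZBTB7B* ratio stayed negative, from -0.49 to -0.18, and that of *RUNX3* positive, from 0.018 to 0.24. *RUNX1* stood at 31.0 CPM in both classes and *BCL11B* had a ratio of 0.02 (-0.41 to 0.44). All 5 intervals held 0, and no member passed 0.5 in either direction, as did 2.46% of 8853 genes upward and 2.67% downward. These classes rest on shallow counts, since 2405 T cells held neither mRNA. *CD8B*+ cells against cells with *CD8A* and no *CD8B*, compared after the data were seen, also gave 5 intervals that held 0, with *RUNX3* at -0.16 (-0.42 to 0.09) and *ZBTB7B* at 0.23. No member passed 0.5 there, as did 6.04% of genes upward and 11% downward, and the *GZMB*+ gates held 22.3% of the *CD8B*+ cells and 40.9% of the others. B cell genes were at 259 CPM in the *CD8B*+ cells and 90.1 CPM in the others, in 20.5% and 7.45% of cells. Their part in these ratios was not tested.

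For *RUNX3*, cell states gave larger differences than the coreceptors did. T cells were put in 12 gates by a few marker UMIs, none of them a member, each cell in the first gate it met. In order these were cycling cells, *FOXP3*+, *ZBTB16*+, *CX3CR1*+ *GZMB*+, *EOMES*+ *GZMK*+, *GZMB*+ *CX3CR1*-, *CCR9*+, *CCR6*+, *CCR4*+, *CCR7/LEF1*+ *SOX4*+, *CCR7/LEF1*+ *SOX4*- and cells that met no gate. *RUNX3* was at 198 CPM (187 to 210) in the 1620 *GZMB*+ *CX3CR1*- cells and at 193 CPM (180 to 206) in the 1153 *CX3CR1*+ *GZMB*+ cells. It was at 96.3 CPM in cycling cells, 95.5 in *EOMES*+ *GZMK*+, 77.0 in *ZBTB16*+ and 61.3 in cells without a gate. Below these came *CCR6*+ at 40.1, *FOXP3*+ at 31.4, *CCR9*+ at 26.9, *CCR7/LEF1*+ *SOX4*- at 24.3 (20.2 to 29.0), *CCR7/LEF1*+ *SOX4*+ at 22.4 and *CCR4*+ at 19.3 CPM. Of the 11 neighbouring pairs in this order, 2 differed by more than counting error. They were the step down from *CX3CR1*+ *GZMB*+ to cycling cells (1.001, 0.62 to 1.41) and the step from no gate to *CCR6*+ (0.61).

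**Figure D3:**
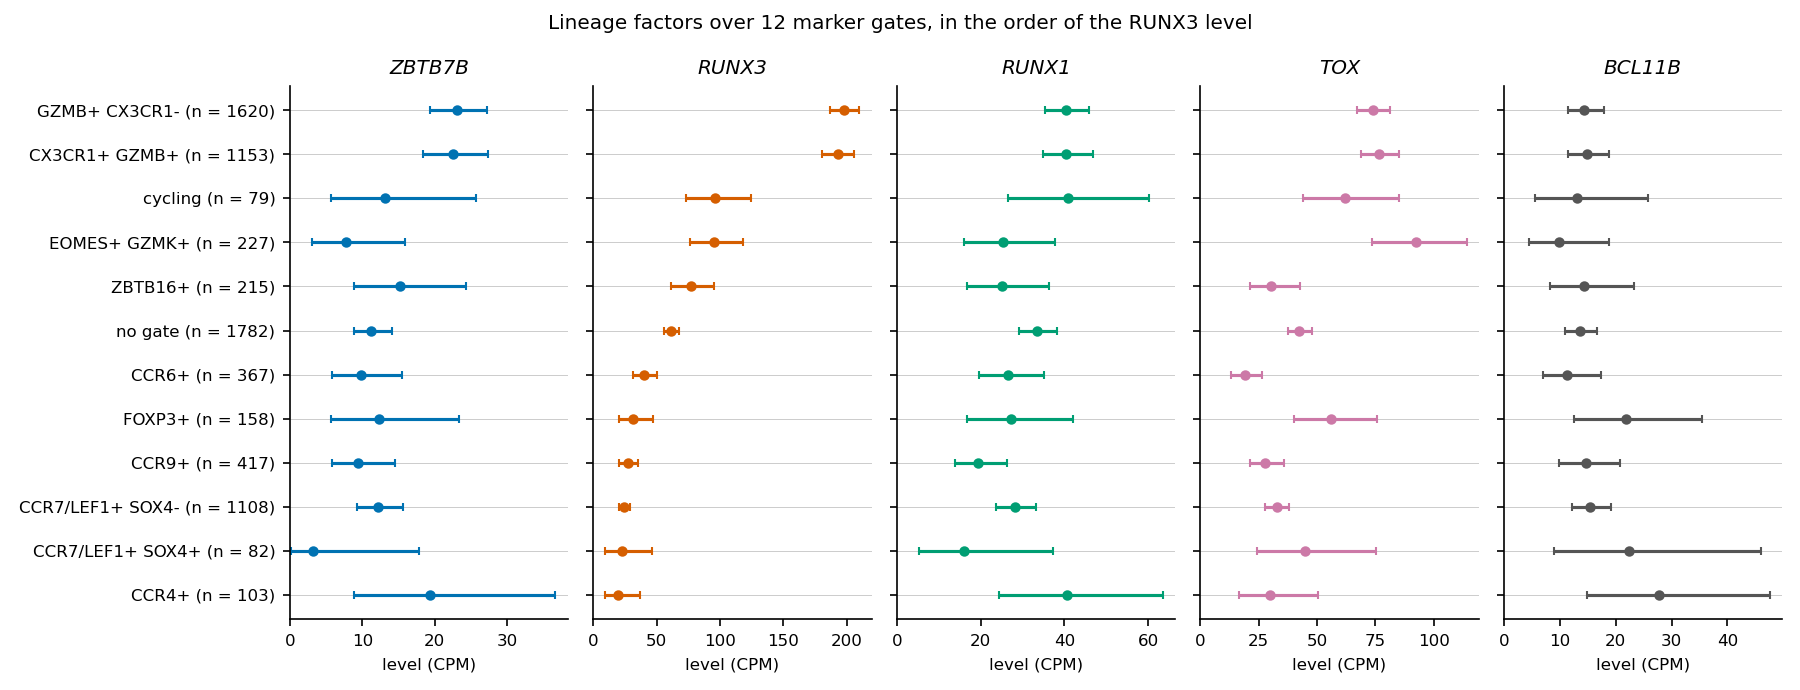
Level of each member (horizontal axis, CPM) in 12 marker gates, listed with their numbers of cells in the order of the *RUNX3* level, with 95% counting intervals as bars. *RUNX3* is at 198 and 193 CPM in both *GZMB*+ gates and at 19.3 to 96.3 CPM in all others, and *BCL11B* shows no such step.

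*ZBTB7B* was also at its highest in the *GZMB*+ gates, at 23.0 and 22.5 CPM, ahead of the gates of helper or *CCR7/LEF1*+ cells. *CCR4*+ cells followed at 19.3 CPM from 9 UMIs, with an interval (8.81 to 36.6) that held both of these values. Next were *ZBTB16*+ at 15.2, cycling at 13.1, *FOXP3*+ at 12.3, *CCR7/LEF1*+ *SOX4*- at 12.2 and no gate at 11.2 CPM. The lowest were *CCR6*+ at 9.75, *CCR9*+ at 9.43, *EOMES*+ *GZMK*+ at 7.68 and *CCR7/LEF1*+ *SOX4*+ at 3.19 CPM, the last from 1 UMI. No pair of neighbours differed beyond counting error. *RUNX1* ran from 40.8 CPM in cycling and 40.7 in *CCR4*+ cells, with 40.4 and 40.3 in the *GZMB*+ gates, to 19.3 in *CCR9*+ and 16.0 in *CCR7/LEF1*+ *SOX4*+ cells, again with no such step between neighbours. The gates between these stood from 25.1 to 33.5 CPM.

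*TOX* had another leading gate. It was at 92.2 CPM (73.5 to 114) in the 227 *EOMES*+ *GZMK*+ cells, followed by *CX3CR1*+ *GZMB*+ at 76.7 and *GZMB*+ *CX3CR1*- at 73.8. Cycling cells had 62.1, *FOXP3*+ 55.9, *CCR7/LEF1*+ *SOX4*+ 44.7, no gate 42.4 and *CCR7/LEF1*+ *SOX4*- 32.7 CPM, and *ZBTB16*+, *CCR4*+, *CCR9*+ and *CCR6*+ cells had 30.4, 30.0, 27.8 and 19.0 CPM. Of its neighbouring pairs 1 differed beyond counting error, no gate over *CCR7/LEF1*+ *SOX4*- (0.38, 0.09 to 0.66). *BCL11B* lay within 9.88 to 27.8 CPM, highest in *CCR4*+ cells and lowest in *EOMES*+ *GZMK*+ cells, and no neighbours differed.

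Taken as 2773 cells, the *GZMB*+ gates had *RUNX3* at 196 CPM against 47.1 CPM in the 4538 other T cells, a log2 ratio of 2.06 (1.94 to 2.17). *ZBTB7B* was at 22.8 against 11.3 CPM, 1.01 (0.74 to 1.28). Both genes were thus higher in the *GZMB*+ gates taken as a whole, which does not show that they share single cells. *TOX* was at 75.05 against 38.7 CPM, 0.96 (0.81 to 1.10), and *RUNX1* at 40.4 against 29.0 CPM, 0.48 (0.29 to 0.66). *BCL11B* stood at 14.6 CPM on both sides, 0.00 (-0.29 to 0.29). Higher by 0.5 or more were 3 of the 5 members and 21.6% of 10019 genes. Higher by 1 or more were 2 of the 5, *RUNX3* and *ZBTB7B*, and 5.63% of genes. The median of the members was 0.96, against 0.18 for all genes. *CD4* and *CD8A* mRNA differed far less between these cells, at 0.28 and 0.29. NK cell markers were at 164 CPM in the *GZMB*+ gates, all of it *KLRF1* as *NCAM1* was at 0 there, and at 22.6 CPM in the others.

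Against *CCR7/LEF1*+ *SOX4*- cells, the gate nearest to naive cells by its markers, *RUNX3* in *CX3CR1*+ *GZMB*+ cells had a log2 ratio of 2.99 (2.71 to 3.27) and *ZBTB7B* of 0.89 (0.42 to 1.37). A ratio of 1 or more was reached there by 12.6% of genes. The *EOMES*+ *GZMK*+ cells carry markers that the study used for its type 1 regulatory T-like cells. In them *RUNX3* was higher than in the same reference and *ZBTB7B* was not shown to differ. *RUNX3* was higher by 1.97 (1.56 to 2.38) and *TOX* by 1.50 (1.10 to 1.88), as were 5.36% of genes by 1 or more. *ZBTB7B* had a ratio of -0.66 from 7 UMIs, with an interval that held 0 (-2.04 to 0.47). Its level there, 7.68 CPM (3.09 to 15.8), had an interval below that of *CX3CR1*+ *GZMB*+ cells (18.4 to 27.4). Between the *CX3CR1*+ and *CX3CR1*- gates of *GZMB*+ cells all 5 ratios lay within -0.04 to 0.06, and none reached 0.5, as did 3.35% of genes upward and 2.59% downward.

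Inside single gates the FB comparisons were made again for the 8 gates with 200 or more cells, cutting each into an upper and a lower part at the median FB. By CD8 FB, *RUNX3* was higher in the upper part beyond counting error in 4 of 8 gates and lower in none. These were *ZBTB16*+ (98.5 against 45.9 CPM, log2 ratio 1.10), *CCR9*+ (36.0 against 15.1, 1.25), *CCR6*+ (49.4 against 28.8, 0.78) and *CCR7/LEF1*+ *SOX4*- cells (28.7 against 18.6, 0.62). In both *GZMB*+ gates, where *RUNX3* was highest, it did not differ (0.05 and -0.14), and in *EOMES*+ *GZMK*+ cells the ratio was -0.60 (-1.25 to 0.04). *CD8A* was higher in all 8 gates. *TOX* was lower in the upper part in 4 of 8 gates, at -1.40 in *ZBTB16*+, -0.38 in *GZMB*+ *CX3CR1*-, -0.71 in *CCR7/LEF1*+ *SOX4*- and -0.67 in cells without a gate. *ZBTB7B* was higher in 1 gate, *CCR6*+, from 15 against 3 UMIs, and *RUNX1* and *BCL11B* differed in none. No share of all genes was computed inside gates, by CD8 FB or by CD4 FB, so these counts of gates have no background beside them. With 80 such intervals over both FB, some calls can arise from counting error alone. The calls also rested in part on the cut. Between the upper and lower tertiles of CD8 FB *RUNX3* was higher in 2 gates, *CCR9*+ and *CCR6*+, and lower in 1, *EOMES*+ *GZMK*+ (-0.82, -1.60 to -0.050), and *TOX* was lower in 3, with *GZMB*+ *CX3CR1*- cells no longer beyond counting error.

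By CD4 FB, a comparison added after the data were seen, *RUNX3* was lower in the upper part in 3 gates, both *GZMB*+ gates and *EOMES*+ *GZMK*+. It was at 165 against 234 CPM in *CX3CR1*+ *GZMB*+ cells (-0.50), at 168 against 241 CPM in *GZMB*+ *CX3CR1*- cells (-0.52), and lower by 0.68 on the log2 scale in *EOMES*+ *GZMK*+ cells. In *CCR7/LEF1*+ *SOX4*- cells it was higher, at 0.63. With tertiles it was lower in the same 3 gates and higher in none. *TOX* was lower in 3 gates, *CX3CR1*+ *GZMB*+ (-0.51), *CCR7/LEF1*+ *SOX4*- (-0.64) and no gate (-0.72). *ZBTB7B*, *RUNX1* and *BCL11B* differed beyond counting error in none of the 8. These parts, like those by CD8 FB, were cut on raw FB counts, and FB per gene UMI was not tried inside gates.

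**Figure D4:**
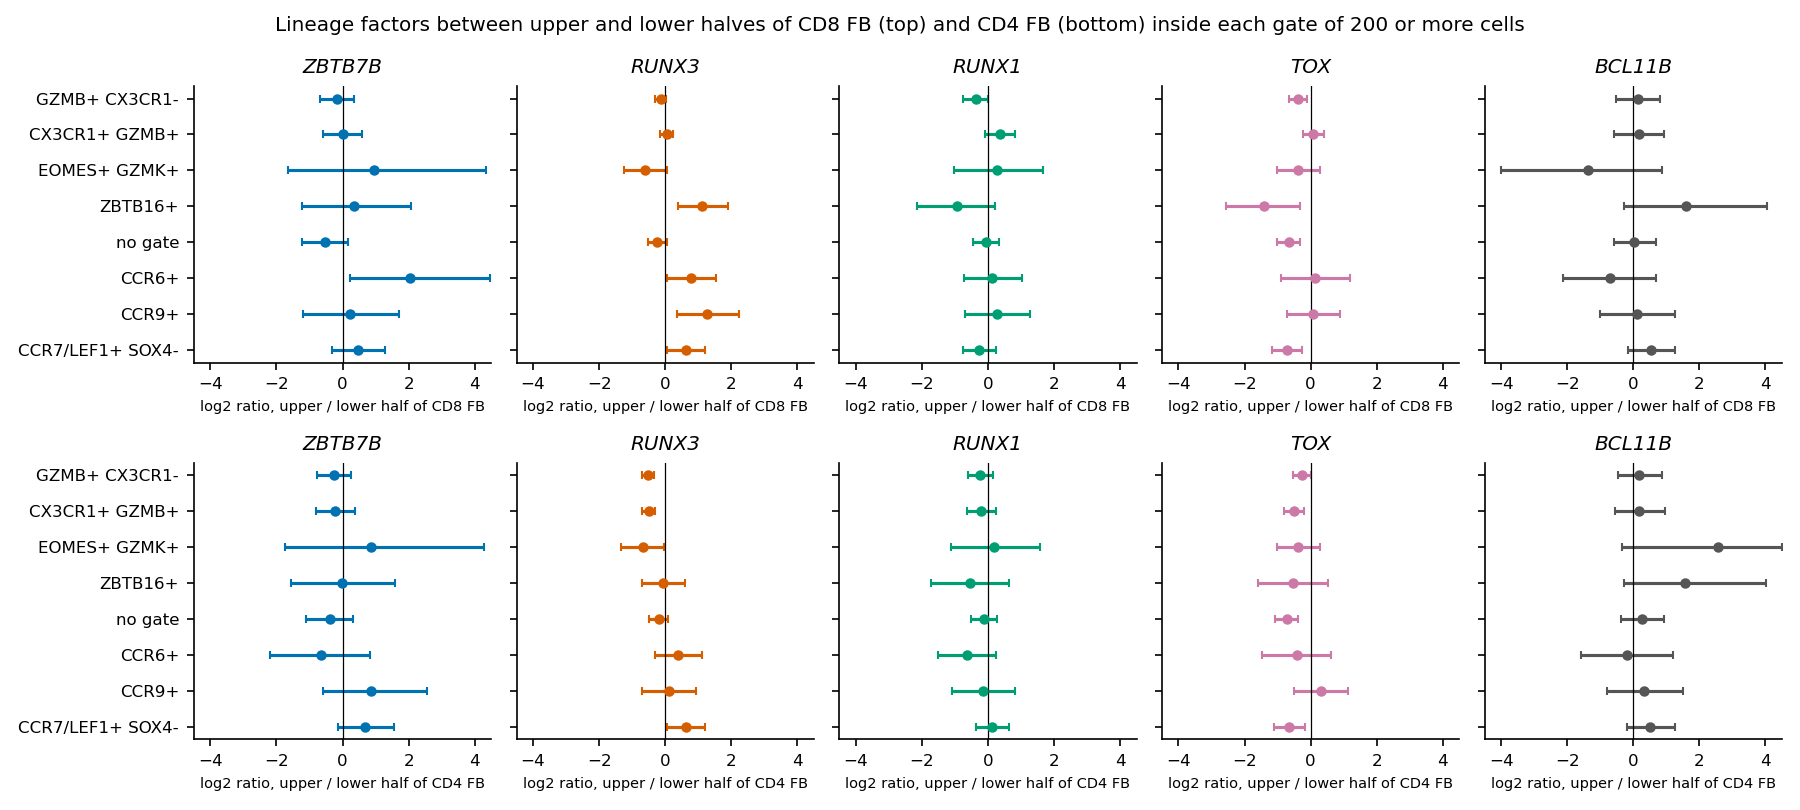
Log2 ratio of each member (horizontal axis) between the upper and lower parts of CD8 FB (top row) or CD4 FB (bottom row) inside each of 8 gates, with 95% counting intervals, which are clipped at the edges of the axis. *RUNX3* lies above 0 in 4 gates by CD8 FB and below 0 in 3 gates by CD4 FB beyond counting error.

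The FB classes set 1 group of cells apart. *RUNX3* was at 97.1 CPM in CD4 FB only cells, 93.1 in cells with both FB, 131 in cells with neither and 224 CPM (188 to 265) in the 186 cells with CD8 FB only. *CD8B* was at 313 CPM in it and at 15.2 CPM in cells with both FB, and *CD4* mRNA at 85.7 against 176 CPM. CD8 FB only over both FB, *RUNX3* had a log2 ratio of 1.27 (1.004 to 1.52) and *TOX* of 0.81 (0.35 to 1.23). *ZBTB7B*, with 11 UMIs in the smaller class, was not lower there, at 18.1 against 15.5 CPM (0.22, -0.80 to 1.08). *RUNX1* had 0.23 (-0.44 to 0.83) and *BCL11B* -0.01 (-1.15 to 0.94). Depth also differed, at a median of 3107.5 gene UMIs with CD8 FB only, 2590 with neither, 3460 with CD4 FB only and 4085 with both. The classes were cut on raw FB counts, and FB per gene UMI was not tried for them.

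**Figure D5:**
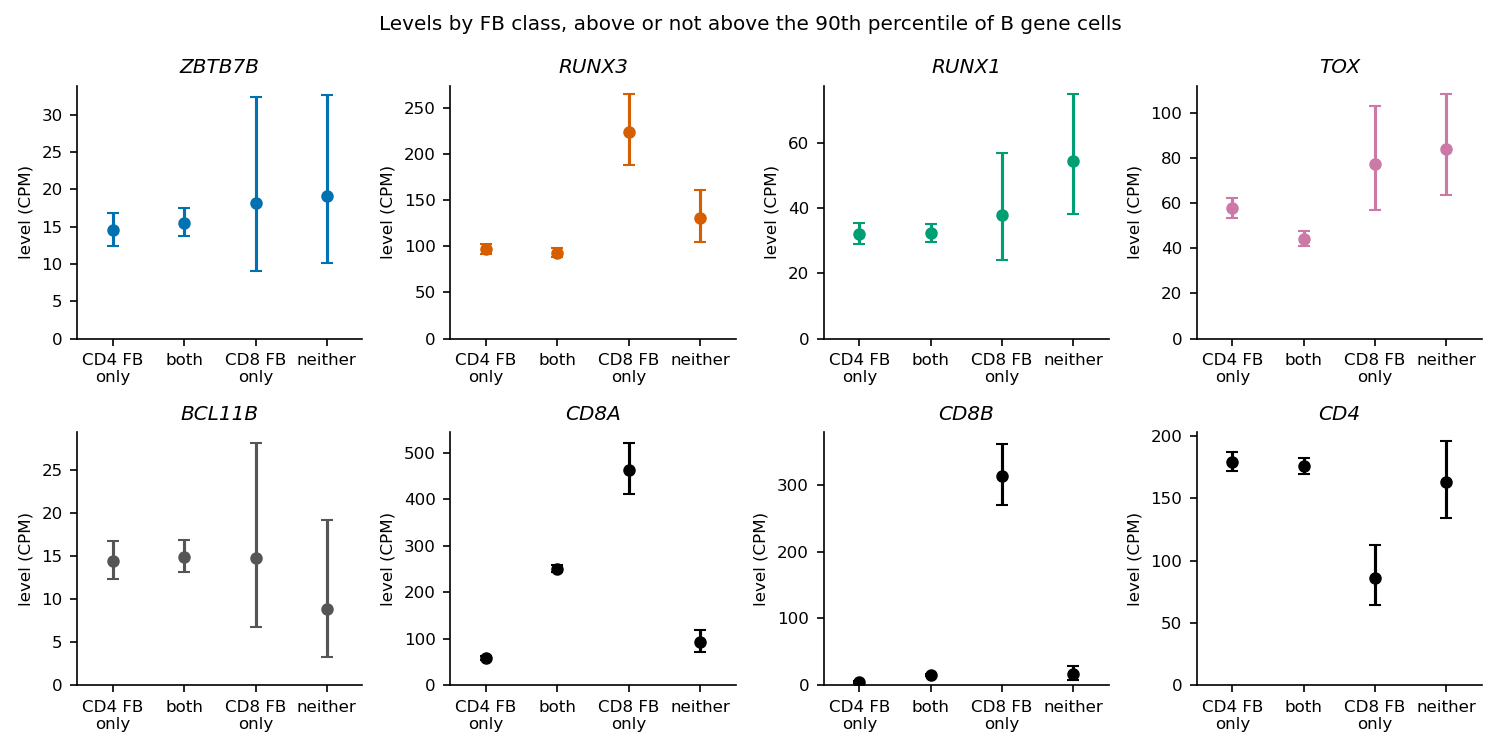
Level of genes (vertical axis, CPM) in T cells grouped by whether CD4 FB and CD8 FB lie above the 90th percentile of B gene cells, with 95% counting intervals as bars. *RUNX3* is at 224 CPM in the 186 cells with CD8 FB only and at 93.1 to 131 CPM in the other classes.

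In this comparison 2 of the 5 members, *RUNX3* and *TOX*, were higher by 0.5 or more, as were 16.2% of 9245 genes, and *RUNX3* was higher by 1, as were 3.61%. The median of the members was 0.23 and that of all genes 0.07. The CD8 FB only class was richer in cells of the *GZMB*+ gates, 55.9% against 37.6%, and in NK cell markers, 166 against 61.3 CPM. Within the *GZMB*+ gates, 104 CD8 FB only cells had *RUNX3* at 336 CPM and 1350 cells with both FB at 184 CPM, a ratio of 0.87 (0.57 to 1.16) in a comparison where 15.4% of genes were higher by 0.5 or more. Outside them it was at 108 against 46.1 CPM (1.22, 0.66 to 1.74), where 5.8% of genes were higher by 1 or more. So the *RUNX3* difference was present both inside and outside the *GZMB*+ gates. Neither comparison was matched for cytotoxic state. Inside the gates, NK cell markers stood at 232 against 141 CPM. The cytotoxic genes of a list given below had a median ratio of 0.42 there, against 0.03 for all genes. Outside them, 3 of 6 cytotoxic genes of that list were also higher by 1 or more (median 1.26). NK cell markers stood at 97.5 against 19.7 CPM there. *TOX* differed outside the *GZMB*+ gates (1.21, 0.50 to 1.84) and had an interval holding 0 inside them (0.25, -0.38 to 0.82), although the contrast between these was not tested. The size depended on the threshold, with *RUNX3* at 0.62 when the median of the B gene cells was used and at 0.42 when their maximum was, and *TOX* at 0.79 and 0.073. In thinned cells *TOX* was at 0.32 and *BCL11B* at -1.41 (-4.47 to 0.48), both with intervals that held 0.

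In CD4 FB only cells, against cells with both FB, 1 member had an interval without 0. The *TOX* level was 57.7 against 44.3 CPM (0.38, 0.23 to 0.53), and the other members had ratios from -0.10 to 0.06. None reached 0.5, as did 1.81% of 9941 genes upward and 3.86% downward. With thresholds at the median of the B gene cells *RUNX3* was lower in CD4 FB only cells, at -0.71 (-0.92 to -0.51), and *TOX* was at 0.15 (-0.073 to 0.37). Cells with neither FB had *TOX* at 83.7 CPM (0.92, 0.50 to 1.31 over both FB), *RUNX1* at 54.4 CPM (0.75, 0.22 to 1.23) and *RUNX3* at 131 CPM (0.49, 0.17 to 0.80). *BCL11B* was at 8.81 against 14.9 CPM from 6 UMIs (-0.76, -2.22 to 0.39). So 2 of the 5 members were higher by 0.5 or more, as were 17.5% of genes, and 1 was lower, as were 13.3%. Markers of other cells also differed there, and their part in the result was not tested. Red cell genes were at 8770 against 40.3 CPM, but in 15.6% against 13.1% of cells. NK cell markers were at 148 against 61.3 CPM, in 28.1% against 20.3% of cells. B cell genes were at 242 against 111 CPM, but in a smaller share of cells, 7.22% against 8.41%.

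ThPOK and RUNX3 antagonism raises the question of whether their mRNAs share cells. At 2000 UMIs per cell, 56 cells held a UMI of both *RUNX3* and *ZBTB7B*, against 38.8 if they were independent. *ZBTB7B* was found in 4.43% (3.37 to 5.72%) of the 1263 cells with *RUNX3* and in 2.77% (2.36 to 3.23%) of the 5672 without. Within the *GZMB*+ gates the shares were 5.37% (3.97 to 7.08%) and 4.54% (3.62 to 5.62%), and outside them 2.32% (1.07 to 4.36%) and 1.97%, so that within each group the intervals overlapped. At 1000 UMIs the shares were 2.44% and 2.62% within the *GZMB*+ gates and 0.92% and 0.99% outside them, again with intervals that overlapped. *TOX* was found, at 2000 UMIs, in 13.5% of cells with *RUNX3* and 9.40% of cells without. The shares were 15.3% and 14.1% within the *GZMB*+ gates and 9.54% and 7.29% outside them, with overlapping intervals in each. At 1000 UMIs they were 9.78% and 7.21% within the gates. Outside them they were 8.29% (4.99 to 12.8%) and 3.94% (3.37 to 4.57%), intervals that did not overlap. At 2000 UMIs *RUNX3* was found in 21.6% (19.6 to 23.6%) of cells with *CD8A* and 17.1% (16.1 to 18.1%) without. Within the *GZMB*+ gates these shares were 35.3% and 32.3%, and outside them 10.7% and 8.53%, with overlapping intervals in each. For *CD4* the shares of all T cells were 19.5% with and 17.7% without.

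Other genes of the lineage choice were counted from 6 lists of 33 genes, of which those with 50 or more UMIs are given. Between quintiles of CD4 FB, the Runx partners and corepressors had 2 of 5 higher and none lower by 0.5, with a median log2 ratio of -0.08. *RUNX2*, another Runx factor, was higher by 1.24 (0.55 to 1.998) where *RUNX3* was lower, and *TLE4*, a Groucho corepressor, by 0.78. Of the factors upstream of ThPOK and other zinc finger repressors, 0 of 5 passed 0.5 either way (median 0.15). HMG and chromatin factors had 3 of 5 higher and 1 lower (median 0.70), with *TCF7* at 0.88 and *SATB1* at 0.85. Cytokine and receptor signal genes had 1 of 5 each way, *IL7R* at 0.75 and *THEMIS* at -0.64. Helper genes had 3 of 4 higher (median 1.17, *CCR4* 1.48 and *CD28* 1.36), and cytotoxic genes 4 of 6 lower (median -1.54, *GZMB* -1.98 and *PRF1* -1.84). Of all genes, 7.96% were higher and 12.4% lower by 0.5 or more, and their median was -0.12.

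By CD8 FB, where 7.47% of all genes were higher and 3.24% lower by 0.5 or more, the same lists moved little. The Runx partners had 1 of 5 higher, *RUNX2* at 0.74, the HMG factors 1 of 5 lower, *LEF1* at -0.69, and the other 4 lists none past 0.5. Between the *CD8A* only and *CD4* only mRNA classes, 1 gene of all 6 lists passed 0.5, *TOX2* at 0.69. Of all genes 2.46% did so upward and 2.67% downward. Between the *GZMB*+ gates and other T cells, by contrast, 11.2% of all genes were lower by 0.5 or more and 21.6% higher. There HMG factors had 3 of 5 lower and 1 higher (median -1.76, *LEF1* -2.67 and *TCF7* -2.14), the Runx partners 2 of 5 lower (*TLE1* -2.05 and *RUNX2* -1.57), helper genes 3 of 4 lower and 1 higher (median -1.60, *CCR4* -3.12 and *CD28* -2.26), and cytotoxic genes 5 of 7 higher and 1 lower (median 2.53). *GZMB*, *EOMES*, *CCR4* and *LEF1* helped to define the gates, so their own values and their part in these counts describe the gates. *BCL6*, a repressor of the same zinc finger family as ThPOK, was higher by 1.83 (1.05 to 2.65), and *TBX21*, the cytotoxic and Th1 factor T-bet, by 2.71.

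Over the 12 gates, the genes whose levels were most like each member were ranked by Pearson's r of log2(CPM + 10), as a description of 12 points from 1 library. *RUNX3* was nearest to *LAIR1* (0.986), *SERPINB9* (0.979) and *RGS9* (0.976). *TOX* was nearest to *WIPF1* (0.962), *RGS1* (0.956) and *WAS* (0.943). *ZBTB7B* was nearest to *CSGALNACT2* (0.921), *ACAP3* (0.917) and *CHPF* (0.906), *RUNX1* to *TUBB2B* (0.933), *DDX10* (0.926) and *EIF4EBP1* (0.919), and *BCL11B* to *PTP4A1* (0.867), *CEBPZOS* (0.859) and *DENND6A* (0.847). These are the highest values among 5083 genes for *RUNX3*, and the other members had as many or 1 more to rank, with few UMIs in the small gates. Among the members themselves r was 0.838 for *ZBTB7B* and *RUNX1*, 0.54 for *ZBTB7B* and *RUNX3*, and -0.55 for *RUNX3* and *BCL11B*.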

How the data were processed

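The RNA and FB libraries of 1 sample were analysed together. By the submitters' processing notes, the authors ran Cell Ranger 3.1.0 with STAR 2.5.1b on Mmul_10. What they deposited are UMI counts, not normalized, of each gene or FB in each barcode. The annotation release is not stated there. A gene ID without a deposited symbol was given one from a table of gene names (720 symbols). Positions and promoter windows came from RefSeq on the same build by gene symbol, and a start is the outermost one annotated.

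The study's filters were applied, with genes in at least 3 barcodes, 200 to 4000 genes and at most 20% mitochondrial UMIs per cell. The mitochondrial share included 2 features without a symbol that lie among the mitochondrial genes. The T cells had a median of 3656 gene UMIs, and 376 of them were too shallow to be thinned, that is, drawn down at random (seed 1) to 2000 UMIs. No doublet caller was run. Alternatives left out the 5% of cells with most UMIs or the cells with a B cell gene UMI.

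UMIs were summed over the cells of a group. Levels have exact Poisson intervals, shares exact Clopper-Pearson intervals and log2 ratios an interval from the exact binomial split of the counts, all at 95%. Genes with 50 or more UMIs in both groups together gave the shares of all genes. Gates needed 2 UMIs of *GZMB*, *GZMK*, the cycling genes or *CCR7* and *LEF1* together, and 1 UMI of the other markers. A ratio pooled over gates is a Mantel-Haenszel ratio. Genes were named from fixed lists, by the 1 or 2 largest ratios of each list, and by the 3 highest correlations over gates among genes with 500 or more UMIs. The members and lists were chosen with earlier results of these data known. Cells of 1 sample are not replicates, and no p-value was computed. The code was tested on simulated data. Python 3.11.15, numpy 2.4.6, scipy 1.17.1, pandas 2.3.3 and matplotlib 3.10.9 were used.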

Additional observations from a re-analysis of the deposited data

How the results depend on the processing

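Of the FB, mRNA class and co-detection results repeated under other settings, 287 values moved by less than counting error, 21 moved by more and 4 turned direction. Ordering cells by FB per gene UMI gave, for CD8 FB, 0.51 for *ZBTB7B*, 0.84 for *RUNX3* and 0.051 for *TOX*, which turned direction, and for CD4 FB -0.11 for *RUNX3*, 0.24 for *RUNX1* and 0.18 for *TOX*, both latter turned. Pooling over gates, chosen after seeing the data, gave -0.062 for *RUNX3* by CD8 FB, turned, and -0.66 for *RUNX3* and -0.39 for *TOX* by CD4 FB, and 0.92 for *RUNX3* in CD8 FB only over both FB. Deciles in place of quintiles of CD8 FB gave 0.68 for *RUNX3*. Thinning to 2000 UMIs gave 0.70 for *BCL11B* by CD8 FB, -1.09 for *ZBTB7B* and -0.029 for *RUNX1* by CD4 FB, and 0.32 for *TOX* and -1.41 for *BCL11B* in CD8 FB only over both FB. FB thresholds at the median of the B gene cells gave 0.62 for *RUNX3* in CD8 FB only over both FB, and -0.71 for *RUNX3* and 0.15 for *TOX* in CD4 FB only over both FB. Thresholds at their maximum gave 0.42 for *RUNX3* and 0.073 for *TOX* in the former, and -0.47 for *ZBTB7B* and -0.22 for *RUNX1* in the latter. The share of *RUNX3* cells with *ZBTB7B* was 1.98% at 1000 UMIs and 7.51% without thinning. The causes were not tested. With gates at 1 UMI 59 of 60 levels moved by less than counting error. So did 80 of 80 ratios inside gates with tertiles, although calls near the limit changed, *RUNX3* by CD8 FB from 4 gates higher and 0 lower to 2 higher and 1 lower. No paired analysis was possible because the series holds 1 sample and no result comes from a test. Depth limits *ZBTB7B* and *BCL11B* most, with 460 and 439 UMIs in all T cells.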
